A study of Mus musculus with 12 samples.

Results

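The Rab genes encode small GTPases that direct membrane traffic, and 59 of them were found among the 35501 mouse genes, 21936 of them protein-coding, that have a transcript in the deposited table. They were chosen by name alone, as every protein-coding gene of the GENCODE vM21 annotation (build GRCm38, also named mm10) whose symbol is Rab followed by digits and at most a letter and a further digit. Hippocampal RNA of 12 C57BL/6 mice (C57BL/6J in the study's methods) was sequenced at postnatal day 70, from 3 mice in each of 4 groups, and the study's methods describe all of them as males. Control mice had neither exposure, and ethanol mice were born to dams that could choose 10% ethanol or water through gestation. By the study's methods, ethanol was also offered before mating and into the first days after birth, so that it was still available to the dams on some of the days of separation. Stress mice were separated from the dam and each other for 3 h daily from postnatal day 2 to 14, and ethanol + stress mice had both exposures. The intake of a dam was voluntary, so the dose to each litter is not fixed by the design. Whole hippocampus holds many cell types, so fewer cells of a type and less RNA per cell cannot be told apart. By the study's methods, pups for separation were picked at random within each litter, while ethanol was assigned to dams. Control and stress mice could thus be littermates, as could ethanol and ethanol + stress mice. Nothing in the labels says which mice shared a litter, so litter is not in the model. The p values measure the spread between these 3 mice per group.

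A Rab protein is switched on when it binds GTP, sits on its own membrane and recruits effectors that move, tether or fuse vesicles. Exchange factors switch it on, GTPase-activating proteins switch it off, and GDP dissociation inhibitors carry the inactive, lipid-modified form through the cytosol. In neurons, the Rab3 proteins and Rab27b ride on synaptic vesicles, while endosomal Rabs sort receptors back to the surface or on to the lysosome.

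The libraries hold 12080000 to 14980000 read pairs by the step that the low values follow, and 81.7% to 83.8% of those values came out whole within 0.15 of a read pair. TPM, the scale of the deposited transcript values, corrects for length, so levels can be compared between genes. Their sums per library differ (889222.3 to 1173649.8), and the Rab genes took 0.298% to 0.41% of them. In 3 libraries, ethanol replicate 2 and ethanol + stress replicates 2 and 3, values lean to short transcripts (Spearman correlation across genes of the deviation with length -0.361, -0.324 and -0.285). Others lean to long transcripts, with 0.289 in ethanol replicate 3, 0.277 in stress replicate 2, 0.264 in ethanol + stress replicate 1 and 0.238 in control replicate 3. Leaving out the 3 short-leaning libraries, an alternative used below, leaves 1 ethanol + stress mouse, which leans to long transcripts. Its spread is then assumed to be that of the other groups. Every marker of neurons, granule cells and pyramidal cells was detected, and no library lacked them as a list. The 5 blood genes (haemoglobins and Alas2) summed to 1603 to 2022 TPM in control mice, 3146 to 6815 in ethanol mice, 2593 to 3392 in stress mice and 2454 to 6480 in ethanol + stress mice, with 5 of 5 called higher in ethanol and in ethanol + stress mice. Choroid plexus markers ranged from 40.3 to 7241 TPM between libraries. The part of these differences in the Rab values was not tested beyond the alternatives given with each result.

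The readouts for each gene were the sum of its transcripts and each transcript by itself. The results below turn on splice forms, and the junctions that separate them are printed here because the forms share most of their sequence otherwise. Each line gives the last 15 bases before the junction in lower case and the first 15 bases after it in capitals, in the direction of the transcript, from the GENCODE vM21 transcripts of GRCm38.
Rab33b-201: ggagagcgcatcaagATCCAGTTGTGGGAC
Rab33b-203: gacgcatctttccagATCCAGTTGTGGGAC
Rab24-201: tccaggtgatgacagAGGACAAAGGTGTGG
Rab24-203: tccaggtgatgacagTCACCTCTCCTCTCT
Rab28-201: atagaacagtcacagAGAGTGGTGAAGGCA
Rab28-205: atagaacagtcacagACTGTATGAGAGTGC
Rab11a-208: caagagcttttgcagAGAAGAATGGTTTGT
Rab11a-206: ttgcagagaagaatgAAGCAAATGTCAGAC
Rab11a-201: caagagcttttgcagAGATATACCGCATTG

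The pairs show what differs. Rab33b-201 and Rab33b-203 (chromosome 3, plus strand) join different ends of exon 1, at 51484580 and 51484112, to the same start of exon 2 at 51493356, so that the bases after the junction are identical and those before it are not. Rab24-201 and Rab24-203 (chromosome 13, minus strand) leave the same exon end at 55320312 and enter the last exon at 55320214 and 55320236. Rab28-201 and Rab28-205 (chromosome 5, minus strand) leave exon 6 at 41633173 and enter different starts of exon 7, at 41625862 and 41625088. Rab11a-201 (chromosome 9, minus strand) joins the end of exon 3 at 64726624 to 64716988, past the exon that Rab11a-208 enters at 64725582.

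All but 2 of the 59 Rab genes were expressed well enough to be tested, and their levels spanned a wide range. By the mean over 12 mice, 12 genes were at 100 TPM or more, 30 between 10 and 100 TPM, 13 between 1 and 10 TPM and 4 under 1 TPM. Rab3a led with 440 TPM, followed by Rab6a (283 TPM), Rab2a (236 TPM), Rab11a (184 TPM), Rab7 (161 TPM), Rab6b (154 TPM) and Rab1a (148 TPM). The spread between control mice was small, with a median coefficient of variation of 6.54% over 55 Rab genes against 8.44% over 14285 genes. Both sets were limited to a control mean of 1 TPM or more and were not matched for level. Rab17 and Rab25, best known from polarised epithelia, were not tested. Rab17 reached 0.499 TPM at most, and Rab25 was above 0 in 2 control mice only, at 0.201 and 0.187 TPM.

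**Figure D1:**
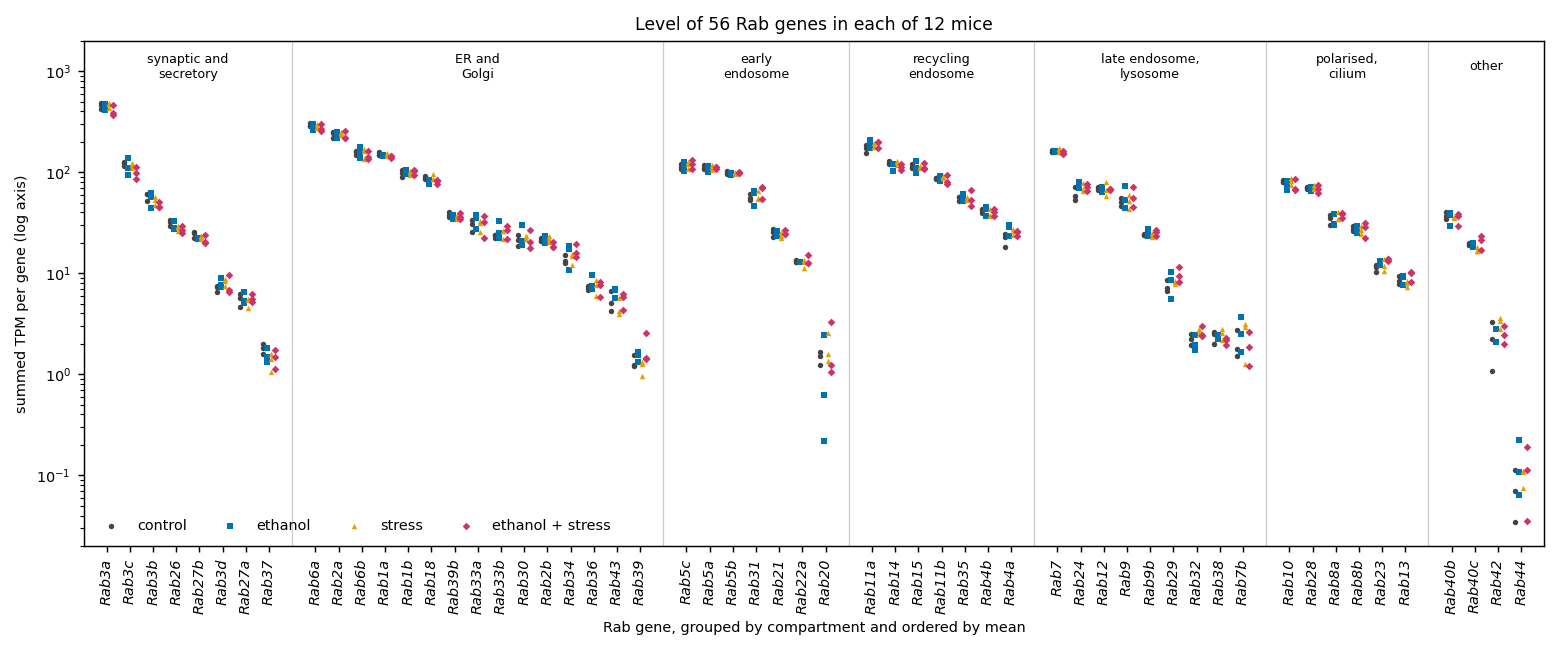
Summed TPM per gene on a log axis for the 56 Rab genes above 0 in all 12 mice, grouped by compartment and ordered by mean, with each mouse as a point. Rab3a lies highest (440 TPM on average) and Rab44 lowest (0.104 TPM), and the 4 groups overlie each other for most genes.

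No Rab gene was called in any comparison. A call is an unadjusted p under 0.01, the threshold the study applied to transcripts, in limma on log2(TPM + 0.5), fitted over 18419 genes. Among all genes tested, 0.679% were called for ethanol, 0.51% for stress, 0.972% for ethanol + stress and 0.461% for the interaction, which is the ethanol + stress difference beyond the sum of the separate ones. At an unadjusted p under 0.05, 2 of 57 Rab genes passed for ethanol (3.51%, against 3.64% of all genes), 0 for stress (2.4% of all genes), 4 for ethanol + stress (7.02%, against 5.38%) and 0 for the interaction (2.69% of all genes). The smallest Benjamini-Hochberg adjusted p from limma among the Rab genes was 0.996 for ethanol, 1.0 for stress and 0.791 for ethanol + stress. The 3 treatments share the same 3 control mice, so their values are set side by side and not compared with each other.

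The intervals show how large a difference could have been missed. The 95% interval of the difference lay within 1.5-fold in either direction for 52 of 57 Rab genes in ethanol mice (91.2%, against 60.1% of all genes), for 51 in stress mice (89.5%, against 64.3%) and for 47 in ethanol + stress mice (82.5%, against 55.7%). The median half-width was 0.26 on the log2 scale for Rab genes and 0.39 for all genes, which were not matched to the Rab genes for level. Rab20, Rab42 and Rab7b, which average 1.56, 2.63 and 2.25 TPM, lay outside that range in every treatment. The lowest and the highest fitted values also belonged to such genes, Rab20 in ethanol mice (log2 fold change -0.55, interval -1.57 to 0.46) and Rab42 in stress mice (0.56 ± 0.28, SE). In ethanol + stress mice Rab3c and Rab9, at 112.7 and 54.1 TPM on average, lay outside it too. The median difference was close to 0 in each treatment, at -0.003, -0.001 and -0.005, beside 0.023, 0.004 and 0.023 over all genes.

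**Figure D2:**
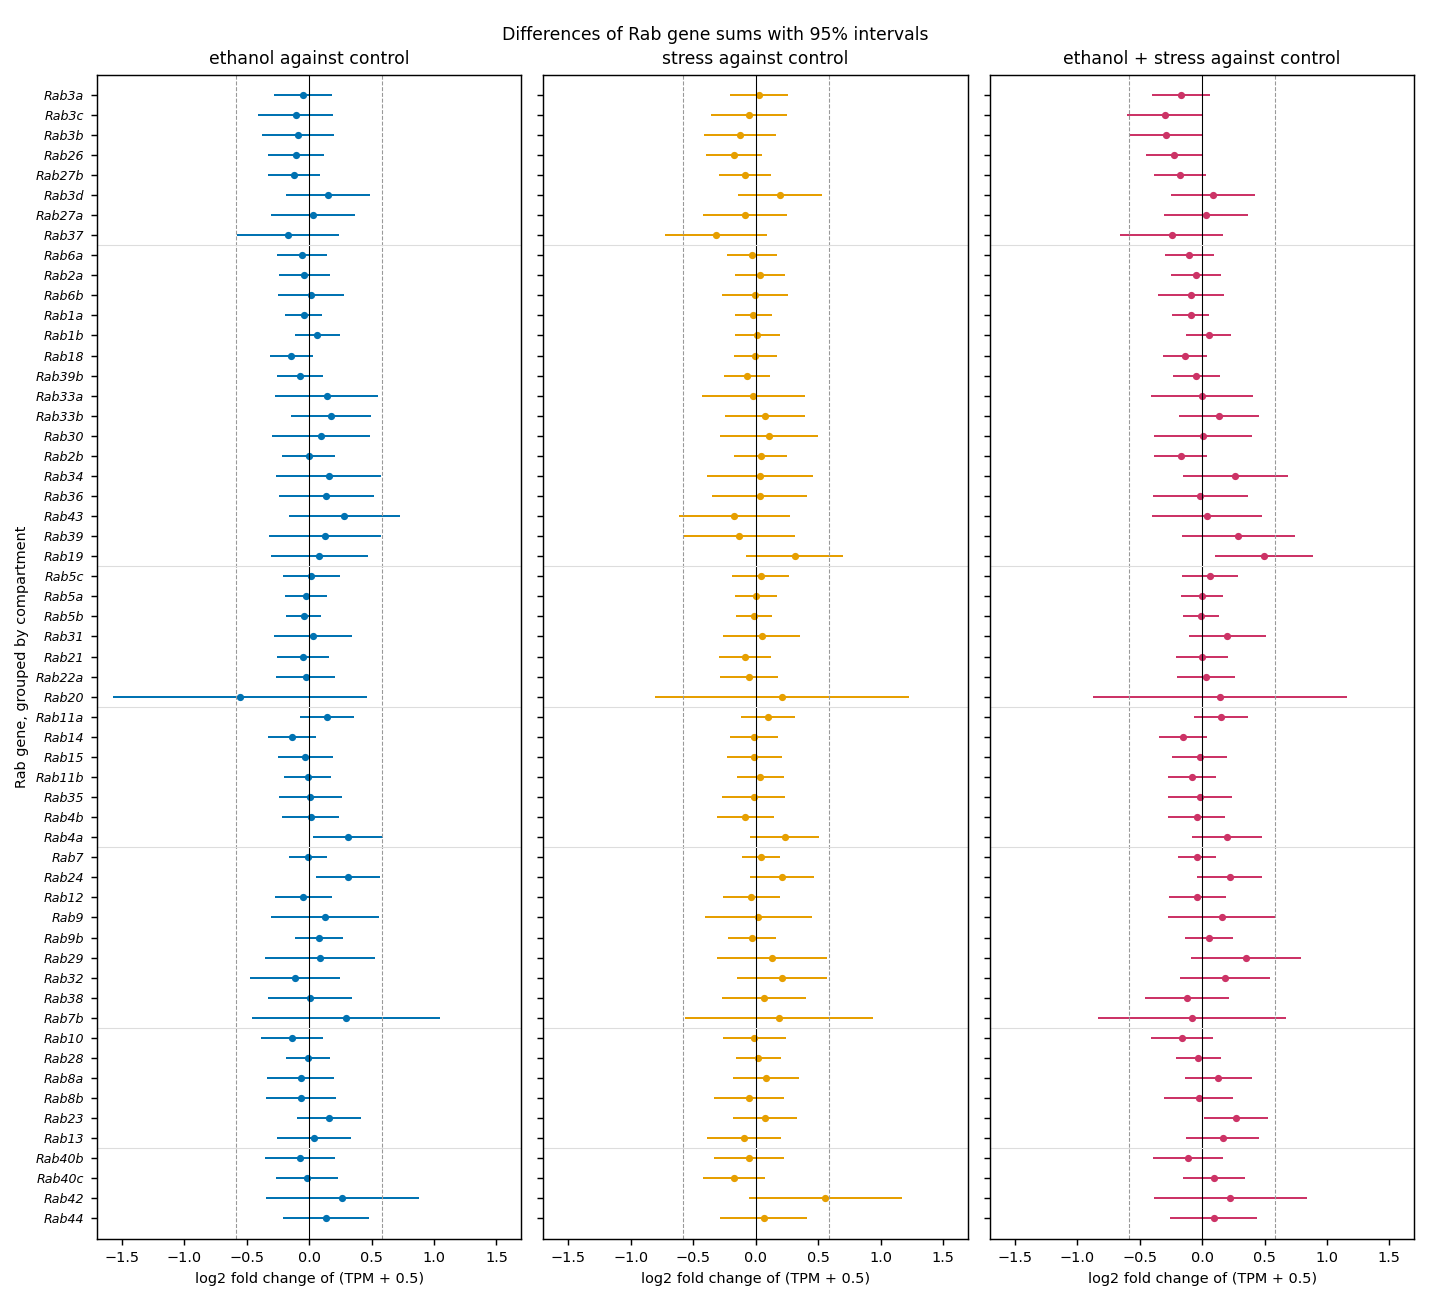
Log2 fold change of (TPM + 0.5) against control with its 95% interval for each of the 57 tested Rab genes, in 3 panels for ethanol, stress and ethanol + stress. Dashed lines mark a 1.5-fold change in either direction, grey lines separate the compartments, and most intervals include 0 and stay between the dashed lines.

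For ethanol and stress, full separation of 3 treated from 3 control mice was rarer than among all genes. For ethanol + stress it was more frequent. In ethanol mice, 1 Rab gene lay wholly above and 2 wholly below the control values (5.26%, against 8.26% of all genes), and in stress mice 1 above and 1 below (3.51%, against 7.2%). In ethanol + stress mice, 1 lay above and 7 below (14.0%, against 10.3%). Of all 18419 genes, 1037 lay above and 851 below control in ethanol + stress mice. The counts above and below were 933 and 588 in ethanol mice and 702 and 624 in stress mice. The gene above in ethanol and in ethanol + stress mice was Rab23, Rab14 and Rab18 lay below in both, and Rab1a, Rab2b, Rab3b, Rab3c and Rab26 lay below in ethanol + stress mice. In stress mice Rab3d lay above and Rab40c below.

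The Rabs of synaptic and secretory vesicles held the lowest values in ethanol + stress mice, though none of these 8 genes was called. Their summed level was 735.6, 697.2 and 676.9 TPM in the control mice, 663.5, 616.5 and 739.6 TPM in ethanol mice, 717.2, 665.3 and 709.0 TPM in stress mice and 688.0, 560.2 and 591.8 TPM in ethanol + stress mice. Ethanol + stress replicates 2 and 3 were below every control mouse and replicate 1 was not. The median difference in ethanol + stress mice was -0.203, with 6 of 8 genes negative and 2 at an unadjusted p under 0.05. Replicates 2 and 3 are among the libraries leaning to short transcripts, and their 6 neuronal markers summed to 2785 and 2673 TPM against 3191 to 3211 TPM in control mice. Glial markers were higher in the same libraries, at 2630 and 2664 TPM for astrocytes (1896 to 2176 TPM in control mice), 6167 and 6144 TPM for oligodendrocytes (4428 to 4803 TPM) and 297.7 and 330.5 TPM for microglia (242.4 to 265.4 TPM). Their part in the lower synaptic sum was not tested. Without the 3 leaning libraries the median was -0.023, but it then rests on ethanol + stress replicate 1, which leans to long transcripts and has neuronal markers at 3323 TPM, above every control mouse. With all libraries kept and the trend over length removed it was -0.23. With a common total it was -0.328, where the median of all genes moved to -0.092. In ethanol mice the median was -0.099, and 0.011 without ethanol replicate 2. In stress mice it was -0.087, and -0.127 to -0.038 over the alternatives. In both of these groups 6 of the 8 genes were negative as well.

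Rab3a, which guides synaptic vesicles to the release site, was at 479.4, 460.5 and 422.9 TPM in control mice, 431.3, 410.0 and 473.2 TPM in ethanol mice, 484.2, 432.0 and 470.9 TPM in stress mice and 457.9, 368.5 and 387.0 TPM in ethanol + stress mice. The groups overlapped, and the difference in ethanol + stress mice was -0.17 ± 0.11 (SE). Rab3c, a close relative, was at 124.5, 114.1 and 125.0 TPM in control mice, 110.2, 92.8 and 138.4 TPM in ethanol mice, 109.3, 122.8 and 118.0 TPM in stress mice and 113.6, 86.1 and 97.1 TPM in ethanol + stress mice. Its ethanol + stress values all lay below control by a difference of -0.30 ± 0.14 that did not reach a call (limma, unadjusted p = 0.0520, Benjamini-Hochberg adjusted p = 0.791). Rab3b also lay below control in ethanol + stress mice (61.0, 51.4 and 60.3 against 50.2, 45.3 and 45.1 TPM, difference -0.29 ± 0.13), as did Rab26, which takes synaptic vesicles to autophagosomes (33.3, 32.2 and 29.4 against 24.8, 26.9 and 29.2 TPM, difference -0.23 ± 0.10). Rab26 was called lower in ethanol + stress mice when values were rescaled to a common total (-0.36, limma unadjusted p = 0.00327) or the trend over length was removed (-0.30, limma unadjusted p = 0.00251). In stress mice Rab26 was at 29.6, 26.1 and 28.5 TPM, a difference of -0.17 ± 0.10, and -0.19 without a call in each of these settings. Without the 3 leaning libraries, the difference of Rab3a was 0.01, that of Rab3c -0.09, that of Rab3b -0.19 and that of Rab26 -0.34. Rab3d and Rab27a had small positive differences (0.09 and 0.03), and Rab27b (-0.18) and Rab37 (-0.25), the other Rabs of secretory granules, negative ones. Without the 3 leaning libraries these differences, from 1 ethanol + stress mouse, were 0.41 for Rab3d, 0.16 for Rab27a, -0.02 for Rab27b and -0.03 for Rab37.

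**Figure D3:**
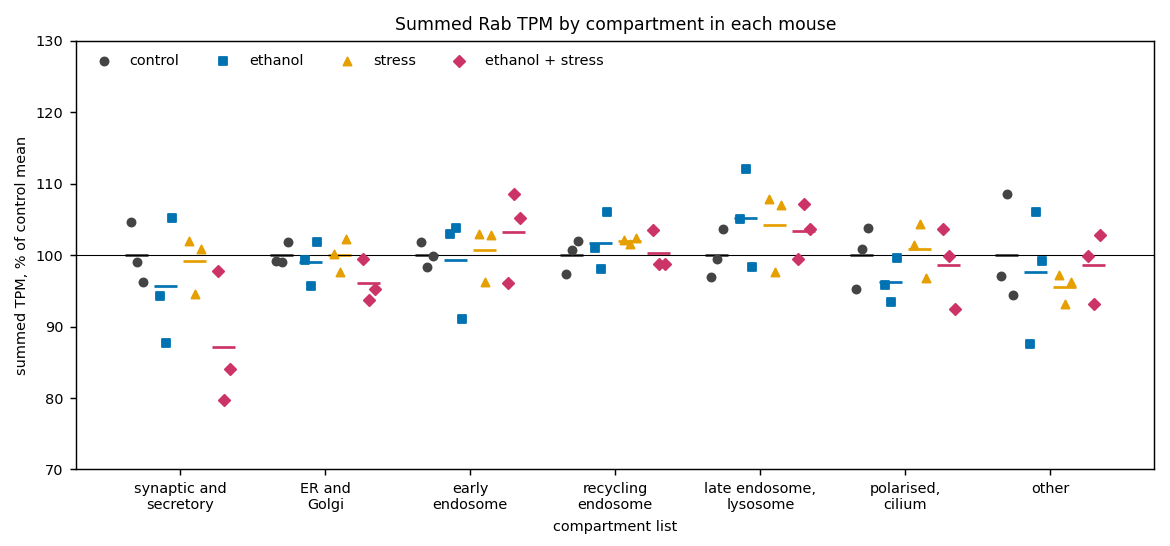
Summed TPM of each compartment list in each mouse as a percentage of the control mean, with points for mice and short lines for group means (the axis starts at 70%). The synaptic and secretory list spans 79.7% to 97.8% in ethanol + stress mice against 96.2% to 104.6% in control mice. In the ER and Golgi list, 2 of the 3 ethanol + stress mice (93.7% and 95.2%) also lie below every control mouse.

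The Rabs of the ER and Golgi, 16 genes with the largest summed level, gave no call. Their sums were 1174 to 1207 TPM in control mice, 1133 to 1207 TPM in ethanol mice, 1157 to 1210 TPM in stress mice and 1109 to 1177 TPM in ethanol + stress mice. Ethanol + stress replicates 2 and 3 (1109 and 1127 TPM), the short-leaning libraries, were below every control mouse here too. The median differences were 0.073, 0.006 and -0.008 for ethanol, stress and ethanol + stress. The ethanol median was 0.0 with a common total and -0.014 without ethanol replicate 3. The ethanol + stress median was -0.138 with a common total, 0.071 without ethanol + stress replicate 1 and -0.063 without the 3 short-leaning libraries. Rab6a, which acts in traffic back to and within the Golgi, was at 284.7, 285.9 and 306.4 TPM in control mice, 286.2, 259.6 and 298.3 TPM in ethanol mice, 281.4, 274.8 and 303.0 TPM in stress mice and 297.8, 254.1 and 266.4 TPM in ethanol + stress mice. Rab2a, which acts between the ER and Golgi, was at 218.0, 244.1 and 251.1 TPM in control mice, 228.4, 218.8 and 247.2 TPM in ethanol mice, 252.7, 230.8 and 246.5 TPM in stress mice and 253.3, 217.7 and 218.8 TPM in ethanol + stress mice. Both overlapped with control in every treatment. Rab6a shares 21.3% of its 31-base words with other genes, most of them with Mrpl48, which overlaps it on the opposite strand.

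Rab1b, which acts with Rab1a in ER to Golgi transport, was at 104.0, 98.5 and 89.7 TPM in control mice, 105.9, 104.4 and 95.2 TPM in ethanol mice, 98.2, 93.8 and 102.7 TPM in stress mice and 94.9, 102.6 and 105.3 TPM in ethanol + stress mice. Rab34, a Golgi and lysosome positioning Rab that also acts in ciliogenesis, was at 12.7, 13.3 and 15.1 TPM in control mice, 17.5, 18.7 and 10.9 TPM in ethanol mice, 15.6, 12.01 and 14.7 TPM in stress mice and 14.5, 15.9 and 19.7 TPM in ethanol + stress mice. Neither separated from control. Rab18, a Rab of the ER and lipid droplets, was at 88.3, 85.0 and 92.4 TPM in control mice, 80.8, 84.1 and 75.7 TPM in ethanol mice and 76.7, 81.2 and 83.6 TPM in ethanol + stress mice. These treated values lay below control by -0.14 ± 0.08 in both groups, and with the trend over length removed both differences were called (-0.22 and -0.24, limma unadjusted p = 0.00991 and 0.00560). Rab19 had the smallest p among gene sums in ethanol + stress mice (0.0171, limma, adjusted p = 0.791), but control mice had 0.176, 0 and 0 TPM, against 0.164, 0.325 and 0.365 TPM in ethanol + stress mice, which is 4 read pairs or fewer per library. It was called without control replicate 1 (0.64), without ethanol + stress replicate 1 (0.61), with no filter or with no trend (0.50 each).

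Rab33b, a Golgi Rab that binds the autophagy protein Atg16l1, was a gene of interest to the study. The study reported it in stress mice, with lower promoter methylation and higher expression of a transcript that its text does not identify. That call was made on transcripts, not on gene sums. As a sum, Rab33b did not separate from control in any treatment. It was at 23.97, 22.5 and 23.7 TPM in control mice, 25.1, 32.8 and 22.5 TPM in ethanol mice, 26.1, 21.8 and 26.2 TPM in stress mice and 21.6, 26.9 and 29.1 TPM in ethanol + stress mice. The differences were 0.18 ± 0.15, 0.07 ± 0.15 and 0.13 ± 0.15. The gene lies on chromosome 3 (51483920 to 51496232, plus strand) and has 3 transcripts, each of 2 exons. Rab33b-201 (3492 bases, protein-coding) made up 89.3% of the sum and was at 22.4, 22.5 and 22.2 TPM in control mice, 22.9, 28.6 and 20.2 TPM in ethanol mice, 23.9, 18.5 and 20.5 TPM in stress mice and 17.6, 23.9 and 26.7 TPM in ethanol + stress mice. Rab33b-202, a short coding form of 397 bases, was listed at 0 in 5 of the 12 libraries and reached 1.57 TPM at most.

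The third Rab33b form was higher in all 9 treated mice than in any control mouse. For stress mice that is the direction the study reported, and whether it was the same transcript is not known here. Rab33b-203 (933 bases, annotated as a processed transcript, that is with no coding sequence) was listed at 0, 0 and 0.716 TPM in control mice, 1.47, 3.16 and 2.26 TPM in ethanol mice, 1.404, 3.29 and 4.85 TPM in stress mice and 4.05, 2.99 and 1.52 TPM in ethanol + stress mice. It was called in all 3 treatments, by log2 fold changes of (TPM + 0.5) of 2.01, 2.33 and 2.24 (limma, unadjusted p = 0.00230, 0.000810 and 0.00108, Benjamini-Hochberg adjusted p = 0.638, 0.837 and 0.526). These tests share the 3 control mice, in which the form rested on an estimated 4 read pairs in all, against 43, 61 and 55 read pairs. Pooled over the mice of a group, the ratios were 9.91 (95% counting interval 3.60 to 38), 14.0 (5.18 to 52.9) and 12.7 (4.70 to 48.4). These intervals leave out the spread between mice and the division of shared reads. Its share of the gene was 1.02% in control mice, 8.56% with ethanol, 12.9% with stress and 11.03% with both. Only 38 of its 903 words of 31 bases occur in no other transcript of GENCODE vM21, so its value depends on how kallisto divided shared reads. In ethanol mice the call did not hold when control replicate 1 or 2 (1.80, limma unadjusted p = 0.0104 for each) or ethanol replicate 2 (1.79, limma unadjusted p = 0.0113) was left out, or all 3 leaning libraries (1.79, limma unadjusted p = 0.0162), and in stress and ethanol + stress mice it held without any single mouse. The interaction was -2.10 ± 0.72 (limma, unadjusted p = 0.0140, adjusted p = 1.0), and it was called without control replicate 3 or without stress replicate 1.

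**Figure D4:**
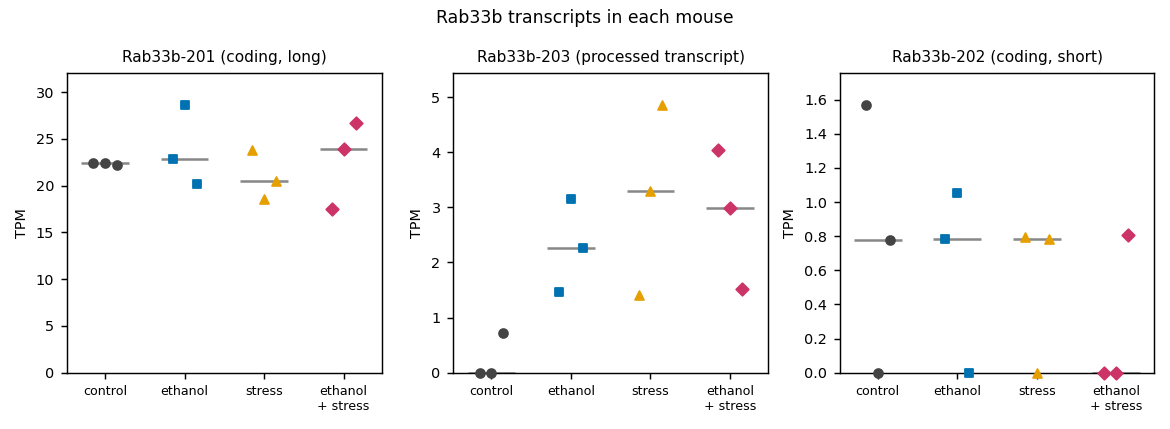
TPM of the 3 Rab33b transcripts in each mouse, with points for mice and a grey line at the median of each group, each panel on its own axis from 0. Rab33b-203 is at 0, 0 and 0.716 TPM in control mice, against at 1.404 TPM or more in every treated mouse, while Rab33b-201 overlaps between all groups.

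Beyond Rab33b-203, 4 Rab transcripts were called in 1 treatment each. Of 168 Rab transcripts tested, 2 were called for ethanol (1.19%, against 1.26% of 59852 transcripts), 2 for stress (1.19%, against 0.914%), 3 for ethanol + stress (1.79%, against 1.21%) and 0 for the interaction (0.854% of all transcripts, with 5 Rab transcripts at an unadjusted p under 0.05 in limma). Complete separation from control was found for 13 Rab transcripts in ethanol mice (9 above and 4 below, 7.74% against 10.2% of all transcripts), 14 in stress mice (10 above and 4 below, 8.33% against 8.22%) and 15 in ethanol + stress mice (9 above and 6 below, 8.93% against 10.2%). No adjusted p of a Rab transcript was under 0.05.

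Rab24, which is linked to autophagy, had a short coding form that rose in ethanol mice. Rab24-203 (454 bases, 55319880 to 55320536) was at 0.954, 5.24 and 12.6 TPM in control mice, 21.4, 22.8 and 20.7 TPM in ethanol mice, 14.4, 12.8 and 22.4 TPM in stress mice and 10.5, 15.4 and 16.8 TPM in ethanol + stress mice. All ethanol and stress values were above control, while the ethanol + stress values overlapped control replicate 3. The ethanol difference was 2.21 ± 0.60 (limma, unadjusted p = 0.00370, adjusted p = 0.697), and the others were 1.79 and 1.59 (unadjusted p = 0.0126 and 0.0226, limma). The difference was 1.35 without control replicate 1 and 2.94 without control replicate 3, and the call was lost without ethanol replicate 1 or 2 (limma unadjusted p = 0.0105 and 0.0118), without the 3 leaning libraries (0.0241) or with only the groups compared (0.01998), while the difference stayed between 2.17 and 2.22. The long form, Rab24-201, stayed between 45.3 and 55.9 TPM in all 12 mice. The Rab24 sum was 52.8, 58.4 and 71.2 TPM in control mice, 75.5, 80.5 and 69.5 TPM in ethanol mice, 68.5, 64.5 and 77.4 TPM in stress mice and 64.9, 70.6 and 75.9 TPM in ethanol + stress mice, a difference of 0.31 ± 0.12 in ethanol mice (limma, unadjusted p = 0.0214). It was called without control replicate 3 (0.43, limma unadjusted p = 0.00301). Of the words of Rab24, 54.4% also occur in Prelid1, which overlaps it on the opposite strand, so reads of the 2 genes could be mixed if strand was not used. Prelid1 was at 96.2 to 109.4 TPM in control and 96.5 to 104.2 TPM in ethanol mice, and only 4 of the 424 words of Rab24-203 occur in another gene.

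Rab28, a Rab of the photoreceptor and primary cilium, had a form with another last exon that rose in stress mice. Rab28-205 (863 bases, protein-coding) was listed at 3.57, 0 and 3.68 TPM in control mice, 5.44, 5.38 and 6.07 TPM in ethanol mice, 9.76, 6.72 and 7.98 TPM in stress mice and 2.92, 4.203 and 3.12 TPM in ethanol + stress mice. Ethanol and stress values were all above control, and ethanol + stress values were within its range or just above it. The stress difference was 2.07 ± 0.65 (limma, unadjusted p = 0.00859, adjusted p = 1.0), and it was 1.05 without control replicate 2, where the form is listed at 0. Leaving out any stress mouse ended the call (limma unadjusted p = 0.0160 to 0.0285). So did a pseudocount of 0.1, no filter, no trend, only the groups compared and leaving out the 3 leaning libraries (limma unadjusted p = 0.0244, 0.0117, 0.0112, 0.0408 and 0.0264). The difference was 2.87 with that pseudocount, 2.07 in the other 4 of these settings and 1.94 to 2.19 with a stress mouse left out. The main form, Rab28-201, was at 49.99 to 62.1 TPM over the 12 mice, and the gene sum at 62.8 to 75.1 TPM. The interaction of Rab28-205 was -2.73 ± 0.91 (limma, unadjusted p = 0.0126). It was called with a pseudocount of 1 and when control replicate 1, 2 or 3 was left out.

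Rab11a, the main Rab of the recycling endosome, carried the call in the opposite direction. Rab11a-201 (595 bases, protein-coding, 4 exons) was listed at 41.4, 3.97 and 8.88 TPM in control mice, 9.80, 12.4 and 5.95 TPM in ethanol mice, 20.9, 15.5 and 22.3 TPM in stress mice and 0, 0 and 6.94 TPM in ethanol + stress mice. The fitted difference in ethanol + stress mice was -3.29 ± 1.004 (limma, unadjusted p = 0.00747, adjusted p = 0.814), and the groups overlapped. It was -2.40 without control replicate 1 (limma unadjusted p = 0.0365), -4.01 without control replicate 2, -4.59 without ethanol + stress replicate 3, and not called without control replicate 3 (-3.48) or ethanol + stress replicate 1 or 2 (-2.65 each, limma unadjusted p = 0.0143, 0.0354 and 0.0351). Using no filter, no trend or only the groups compared ended the call as well (limma unadjusted p = 0.0110, 0.0104 and 0.0351), with the difference still -3.29. A sister form that shares most of its sequence, Rab11a-206 (462 bases), was listed at 0 in control replicate 1, where Rab11a-201 was highest, and at 28.4 to 58.8 TPM in the other 11 mice. The 2 forms have 24 and 23 words of their own. An exact 0 for either form can be a failed estimate, and the coding form that makes up 62.3% of the gene, Rab11a-208, was at 105.0 to 132.2 TPM in all mice.

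The sum of Rab11a over its 9 transcripts was 154.6, 175.4 and 184.9 TPM in control mice, 175.2, 206.0 and 187.3 TPM in ethanol mice, 194.7, 176.4 and 178.8 TPM in stress mice and 172.8, 199.1 and 199.6 TPM in ethanol + stress mice. The groups overlapped, with differences of 0.14 ± 0.10, 0.10 ± 0.10 and 0.15 ± 0.10.

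**Figure D5:**
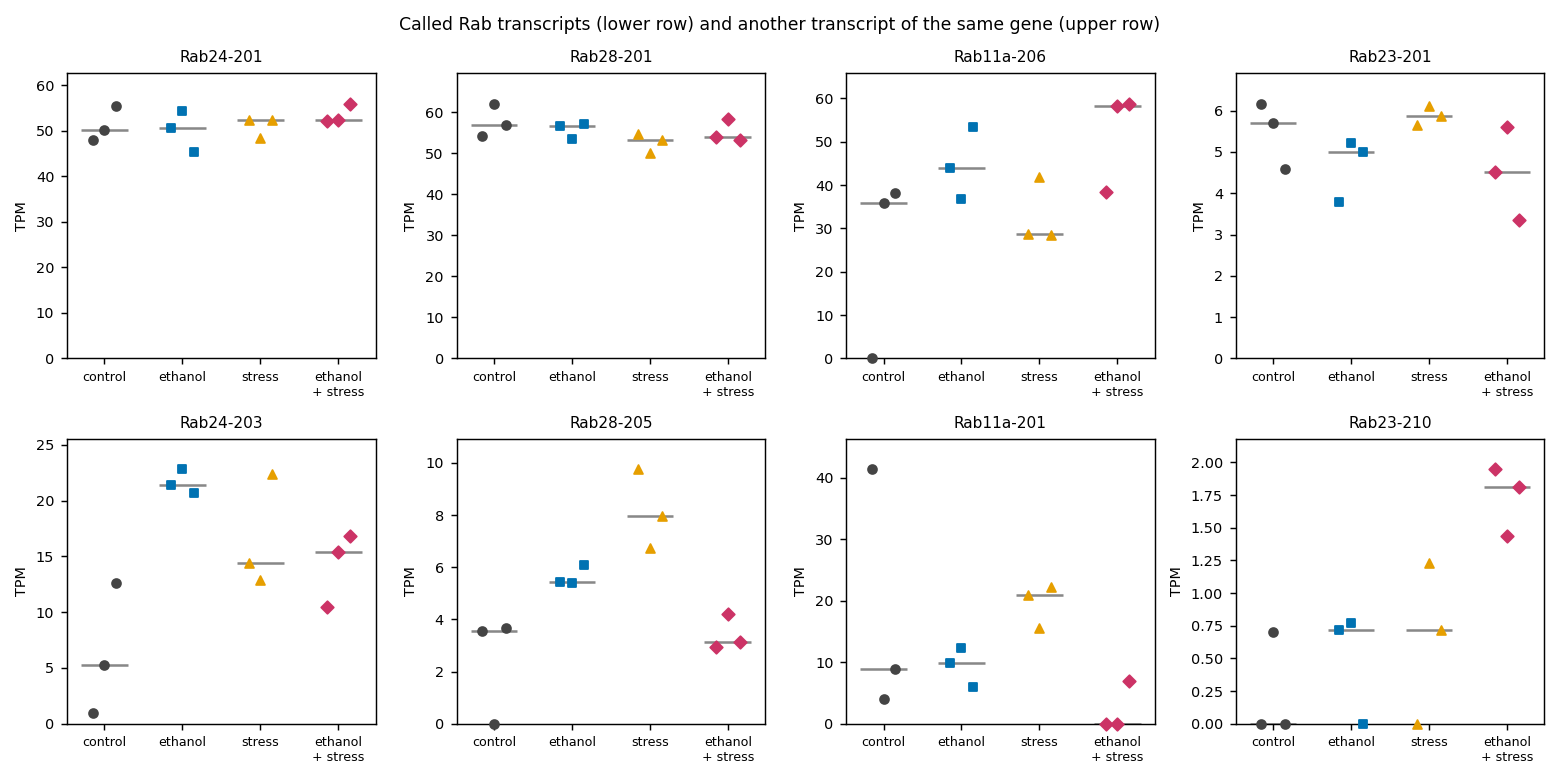
TPM of the called forms of Rab24, Rab28, Rab11a and Rab23 (lower row) and of another form of the same gene (upper row) in each mouse, with a grey line at the median of each group and each panel on its own axis from 0. Rab24-203 is at 20.7 to 22.8 TPM in ethanol mice against 0.954 to 12.6 TPM in control mice, and Rab11a-206 and Rab11a-201 take opposite values in control replicate 1.

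The other recycling Rabs gave no call. Their list of 9 genes, 7 of them tested, summed to 600.6 to 629.5 TPM in control mice, 605.1 to 654.8 TPM in ethanol mice, 626.7 to 632.0 TPM in stress mice and 609.2 to 638.7 TPM in ethanol + stress mice. Rab14, which links the Golgi with early and recycling endosomes, was at 122.5, 121.8 and 129.6 TPM in control mice, 119.5, 101.9 and 120.0 TPM in ethanol mice, 117.2, 127.8 and 125.1 TPM in stress mice and 120.2, 104.3 and 111.6 TPM in ethanol + stress mice. Its ethanol and ethanol + stress values were all below control, by -0.13 ± 0.09 and -0.16 ± 0.09, with 120.0 and 120.2 TPM nearest to the lowest control value of 121.8 TPM. Rab4b, which speeds recycling from early endosomes, was at 42.3, 42.9 and 39.1 TPM in control mice, 45.8, 42.9 and 37.0 TPM in ethanol mice, 37.5, 36.6 and 43.3 TPM in stress mice and 37.0, 40.1 and 43.5 TPM in ethanol + stress mice. It overlapped with control throughout, and 62.7% of its words also occur in other genes, most of them in Gm21983, a gene on the same strand that is listed at 0 in all mice. Rab4a, its paralog, was at 22.9, 18.4 and 24.6 TPM in control mice, against 29.8, 23.4 and 28.7 TPM in ethanol mice, a difference of 0.31 ± 0.13 (limma, unadjusted p = 0.0312, adjusted p = 0.9965) that was called without ethanol replicate 2 (0.42, limma unadjusted p = 0.00771).

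The early endosome Rabs, led by the 3 Rab5 paralogs that control fusion of endocytic vesicles, gave no call. Their 7 genes summed to 413.9 to 428.4 TPM in control mice, 383.5 to 437.1 TPM in ethanol mice, 405.1 to 433.5 TPM in stress mice and 404.4 to 456.9 TPM in ethanol + stress mice, with 0 at an unadjusted p under 0.05 in limma. As a percentage of the control mean these sums were 98.3% to 101.8% in control mice, 91.1% to 103.8% in ethanol mice and 96.1% to 108.6% in ethanol + stress mice. Rab5c was at 121.4, 113.5 and 107.7 TPM in control mice, 118.3, 125.5 and 103.3 TPM in ethanol mice, 120.5, 107.2 and 124.8 TPM in stress mice and 106.8, 130.7 and 121.2 TPM in ethanol + stress mice. Rab5a was at 107.6, 109.6 and 116.7 TPM in control mice, 114.6, 112.7 and 101.4 TPM in ethanol mice, 111.4, 105.3 and 117.2 TPM in stress mice and 107.7, 112.9 and 112.2 TPM in ethanol + stress mice. For Rab5b the difference in ethanol + stress mice was -0.01, with an interval of -0.15 to 0.13. These 3 paralogs lie close to each other in level (117, 111 and 98.1 TPM on average), unlike the Rab3 family, in which Rab3a (440 TPM), Rab3c (113 TPM), Rab3b (52.9 TPM) and Rab3d (7.73 TPM) are well apart.

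Late endosome, lysosome and autophagosome Rabs, 9 genes, summed to 368.6 to 393.6 TPM in control mice, 373.5 to 425.5 TPM in ethanol mice, 371.0 to 410.1 TPM in stress mice and 378.0 to 407.3 TPM in ethanol + stress mice. Rab7, the Rab of late endosomes and lysosomes, was at 165.1, 160.2 and 157.0 TPM in control mice, 163.3, 157.8 and 158.2 TPM in ethanol mice, 172.8, 168.2 and 157.4 TPM in stress mice and 161.8, 154.5 and 151.9 TPM in ethanol + stress mice. Its differences were within 0.05 of 0 in all 3 treatments. Rab29, which acts at lysosomes and the Golgi with the kinase Lrrk2, was at 7.12, 6.68 and 8.502 TPM in control mice, 8.55, 10.3 and 5.53 TPM in ethanol mice, 8.36, 7.89 and 8.20 TPM in stress mice and 8.19, 9.37 and 11.50 TPM in ethanol + stress mice. Ethanol + stress replicate 1 lay within the control range, and the difference was 0.35 ± 0.20. The remaining members, Rab9, Rab9b, Rab12, Rab32, Rab38 and Rab7b, overlapped with control in all treatments.

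Among the 6 Rabs of polarised transport and the cilium, Rab23 was the member that stood above control. Rab23, which restrains Hedgehog signalling, was at 10.2, 11.9 and 11.6 TPM in control mice, 12.6, 13.3 and 11.9 TPM in ethanol mice, 11.7, 13.7 and 10.4 TPM in stress mice and 13.7, 13.9 and 13.3 TPM in ethanol + stress mice. The difference in ethanol + stress mice was 0.27 ± 0.12 (limma, unadjusted p = 0.0392, adjusted p = 0.791), and in ethanol mice the nearest values were 11.93 TPM in both groups when rounded. Its called form, Rab23-210 (444 bases, a processed transcript of 3 exons on chromosome 1), was listed at 0, 0.705 and 0 TPM in control mice, 0.719, 0.767 and 0 TPM in ethanol mice, 0, 1.23 and 0.719 TPM in stress mice and 1.95, 1.43 and 1.81 TPM in ethanol + stress mice. That is an estimated 1 read pair in control against 11 in ethanol + stress mice, a ratio pooled over mice of 10.3 with a counting interval of 1.5 to 443. Its fitted difference was 1.73 ± 0.54 (limma, unadjusted p = 0.00846, adjusted p = 0.814), and leaving out control replicate 1 or 3 or any ethanol + stress mouse ended the call (1.52 to 1.83, limma unadjusted p = 0.0154 to 0.0344). The call also ended with a pseudocount of 0.1, no filter, a common total or the trend over length removed (limma unadjusted p = 0.0231, 0.0120, 0.0114 and 0.0119), with differences of 3.18, 1.73, 1.66 and 1.59. Without the 3 leaning libraries, which leaves 1 ethanol + stress mouse, the difference was 1.87.

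Rab10, which acts in exocytosis and neurite growth, was at 79.6, 80.7 and 84.5 TPM in control mice, 74.9, 66.0 and 82.2 TPM in ethanol mice, 74.0, 88.3 and 81.3 TPM in stress mice and 85.3, 66.0 and 68.5 TPM in ethanol + stress mice. Rab8b, a Rab of exocytic membrane traffic, was at 26.3, 27.5 and 29.5 TPM in control mice, 25.3, 24.9 and 29.5 TPM in ethanol mice, 26.7, 29.4 and 24.4 TPM in stress mice and 31.5, 28.4 and 22.5 TPM in ethanol + stress mice. Rab13, which acts at cell junctions and in neurite growth, was at 8.31, 9.34 and 7.80 TPM in control mice, 9.17, 9.43 and 7.63 TPM in ethanol mice, 8.45, 7.97 and 7.34 TPM in stress mice and 8.28, 10.4 and 10.1 TPM in ethanol + stress mice. None of the 3 separated from control in any treatment. Rab8a differs from the others in form, since 63.2% of its sum (30.0 to 40.6 TPM) came from Rab8a-202, a retained-intron transcript.

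The 4 Rabs outside these lists were Rab40b, Rab40c, Rab42 and Rab44. Rab40b, of the Rab40 proteins that carry a ubiquitin ligase adaptor domain, was at 37.0, 40.7 and 34.3 TPM in control mice, 29.7, 39.4 and 38.02 TPM in ethanol mice, 35.6, 35.4 and 36.4 TPM in stress mice and 38.4, 29.1 and 36.5 TPM in ethanol + stress mice. Rab40c was at 18.97, 19.70 and 18.89 TPM in control mice, 18.95, 19.96 and 18.10 TPM in ethanol mice, 18.04, 16.43 and 16.46 TPM in stress mice and 17.2, 23.5 and 21.5 TPM in ethanol + stress mice. Stress values of Rab40c were all below control, by -0.17 ± 0.11 (limma, unadjusted p = 0.155). Its interaction was called without ethanol + stress replicate 1 (0.41, limma unadjusted p = 0.00920). Rab42, at 1.08, 3.33 and 2.22 TPM in control mice, against 3.34, 2.81 and 3.62 TPM in stress mice, was called in stress mice without control replicate 2 (0.85, limma unadjusted p = 0.00736).

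Most Rab genes are made mainly of 1 coding form. The table lists 247 Rab transcripts, of which 18 were at 0 in all mice, and 12 genes have a single transcript. Of 47 genes with more, 16 had over 90% of their level in 1 form. Coding forms made up 95.5% to 97.1% of the Rab level per mouse, retained-intron forms 1.54%, forms marked for nonsense-mediated decay 1.26% and other processed transcripts 0.817% on average. The leading form was not a coding one in 4 genes, Rab8a, Rab7b, Rab17 and Rab25. Of the tested forms, 12 have no 31-base word of their own, so their values rest on the division of reads alone. Of the 59 genes, 25 share no word with another gene, 9 share over 10%, and 3 (Rab43 with Gm45140 at 74.8%, Rab4b and Rab24) over 50%, and these 3 are uncertain as gene sums.

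Among 80 genes of Rab partners, 3 were called, each in 1 treatment. The share was 1 of 80 for ethanol (1.25%, against 0.679% of all genes), 2 of 80 for ethanol + stress (2.5%, against 0.972%) and 0 for stress and the interaction, each of which had 1 at an unadjusted p under 0.05 in limma. The 7 genes of GDP dissociation inhibitors and prenylation had no call in limma in any of the 4 comparisons and 0 at an unadjusted p under 0.05. Of 22 exchange factor genes, Rin3 was called higher in ethanol mice and Dennd4c in ethanol + stress mice, and of 16 GTPase-activating protein genes Tbc1d14 was called higher in ethanol + stress mice. At an unadjusted p under 0.05 (limma), the exchange factors had 1 gene for ethanol and 2 for ethanol + stress, and the GTPase-activating proteins 2 for ethanol, 1 for ethanol + stress and 1 for the interaction. The 35 effector genes had no call, with 1 and 2 at an unadjusted p under 0.05 (limma) in stress and ethanol + stress mice. Rin3, which activates Rab5 and Rab31, was at 0.3735, 0.7002 and 0.722 TPM in control mice, against 1.42, 2.31 and 1.21 TPM in ethanol mice (difference 0.95 ± 0.29, limma, unadjusted p = 0.00689, adjusted p = 0.9965). Dennd4c, an activator of Rab10, was at 6.08, 7.09 and 7.74 TPM in control mice, against 8.68, 11.3 and 9.67 TPM in ethanol + stress mice (0.47 ± 0.14, limma, unadjusted p = 0.00546, adjusted p = 0.791). Tbc1d14, which binds Rab11 and acts in autophagy, was at 25.3, 26.9 and 26.4 TPM in control mice, against 30.3, 35.5 and 31.8 TPM in ethanol + stress mice (0.31 ± 0.10, limma, unadjusted p = 0.00986, adjusted p = 0.791). In these comparisons the treated values of all 3 genes lay above control. Among all genes, values lay wholly above or below control for 8.26% in ethanol mice and 10.3% in ethanol + stress mice.

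The study lists 9 Rab genes with a promoter region that differed in DNA methylation in some treatment, namely Rab1b, Rab4b, Rab8b, Rab11a, Rab13, Rab23, Rab29, Rab33b and Rab34. That list was made from DNA of the same groups and is not independent evidence of any direction, and the methylation data were not analysed here. As gene sums, 0 of the 9 were called by limma in any comparison, and Rab23 alone was under an unadjusted p of 0.05, in ethanol + stress mice. Their median differences were 0.087 for ethanol, 0.033 for stress and 0.151 for both exposures, against -0.003, -0.001 and -0.005 over the 57 Rab genes. Of their 48 transcripts, 32 were tested. Rab33b-203 was the 1 called for ethanol (3.12%, against 1.26% of all transcripts) and the 1 for stress (3.12%, against 0.914%), and it was called with Rab11a-201 and Rab23-210 for ethanol + stress (3 of 32, 9.38%, against 1.21%). The shares rest on 1 to 3 forms, with the read pairs and left-out mice given above.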

How the data were processed

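Hippocampal RNA was depleted of ribosomal RNA and sequenced as paired ends from stranded libraries. The authors quantified transcripts with kallisto, and the deposited signal is TPM per transcript, with sums that differ between libraries for a reason not given in the sources used here. The submitters' processing notes name kallisto, sleuth, CASAVA and mm10, with no version given in the sources used here, and the strand setting is not given there either. Identifiers were matched to GENCODE vM21 (113492 of 115270 transcripts), and transcripts were summed to genes. All 12 columns were mapped to samples by name, and 0 columns were left unmapped.

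Genes (18419) or transcripts (59852) that reached 0.1 TPM in 6 libraries entered the test on log2(TPM + 0.5), a scale that understates changes of low genes, with limma 3.58.1 in R 4.3.3. A single model held the 4 groups, with eBayes trend and no replicate block. Called means an unadjusted p under 0.01, and adjusted p values are Benjamini-Hochberg over all features. The model was tested on simulated data. Read pairs were recovered from the steps of low values. Their intervals are exact at 95% and cover counting error only. Shared sequence was counted in words of 31 bases.

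Named genes were Rab33b and its transcripts, every called member, the 2 highest members of each compartment and the members the study lists for methylation. Rab3b, Rab4a, Rab5b, Rab18, Rab19, Rab20, Rab26 and Rab42 and the others given outside that rule were chosen after their values were seen. Members and lists were chosen with earlier results of these data known. Alternatives were pseudocounts of 0.1 and 1, median-of-ratios scaling, a filter minimum of 1 TPM, filtering on mean level or not at all, a common total, no trend, only the groups compared, a replicate block, removal of the trend over length (loess, span 0.3), each mouse left out and the 3 short-leaning libraries left out. Python 3.11.15 ran the tables (scipy 1.17.1, numpy 2.4.6, pandas 2.3.3) and plots (matplotlib 3.10.9).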

Additional observations from a re-analysis of the deposited data

How the results depend on the processing

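The counts of Rab genes and transcripts called by limma (unadjusted p under 0.01) are small, so a single call moves them. No called value of a Rab transcript changed sign under any alternative. For gene sums, 0 were called in each comparison, and 1 was called for ethanol with the trend over length removed. For ethanol + stress, 1 was called with no filter, 1 with a common total, 1 with no trend and 2 with the trend over length removed. Leaving out each mouse in turn gave 0 to 1 genes for ethanol, 0 to 1 for stress, 0 to 1 for ethanol + stress and 0 to 1 for the interaction.

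For transcripts, the 2 called for ethanol became 1 with only the groups compared and 0 without the 3 short-leaning libraries. The 2 called for stress became 1 with a pseudocount of 0.1, 1 with no filter, 1 with no trend and 1 with only the groups compared. The 3 called for ethanol + stress became 1 with no filter, 2 with a pseudocount of 0.1, a minimum of 1 TPM or no trend, and 4 with only the groups compared or without the 3 libraries. With the trend over length removed, 3 were called for ethanol, and filtering on mean level gave 3 for stress. For the interaction the 0 became 1 with a pseudocount of 1, 1 with no filter, 1 when filtering on mean level and 2 without the 3 short-leaning libraries. Leaving out each mouse gave 0 to 5 for ethanol, 1 to 3 for stress, 1 to 3 for ethanol + stress and 0 to 4 for the interaction. The causes were not tested.

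With the replicate block, Rab24-203 was called for the interaction (1 transcript in place of 0) and for stress (3 in place of 2), and Rab11a-201 was not called for ethanol + stress (2 in place of 3, limma unadjusted p = 0.0104). The other counts did not change. Replicate numbers gave no sign of pairing: deviations of same-numbered mice correlated at -0.173 to 0.164, and those of other mice at -0.333 to 0.338. With 3 mice per group, these correlations cannot show which mice were littermates. A common total moved the median of all genes in ethanol + stress mice from 0.023 to -0.092, and that of the Rab genes from -0.005 to -0.14. With 3 mice per group, depths of 12080000 to 14980000 read pairs leave forms under about 1 TPM resting on a few read pairs. The setting without the 3 libraries and the medians by compartment were chosen after seeing the data.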
